A study of Mus musculus with 20 samples.

Results

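Genes of the inflammatory cytokine and inflammasome response were followed by symbol through single-cell RNA-seq of the mouse spinal cord, namely *Il1a*, *Il1b*, *Il1rn*, *Tnf*, *Il6*, *Il10*, *Il18*, *Osm*, *Nlrp3* and *Casp1*. Of these 10 genes, 9 were among the 16003 genes of the count table, and *Il10* was not. The cells came from female C57BL/6J mice aged 8 to 10 weeks, which received a T9 contusion or a sham laminectomy and ate a diet with vehicle or with PLX5622 from 2 weeks before surgery to the end point. The labels give PLX5622 as 1200 ppm, and the study's methods also name a lower figure in ppm. PLX5622 inhibits the *Csf1* receptor and thereby depletes microglia, but the receptor is also found on other macrophages and monocytes. The 6 libraries were sham, 7 days post injury (dpi) and 28 dpi under each diet, each a single pool of 3 to 4 mice. Neither sham library has a single day in its labels, which name 7 and 28 days, and it was the only reference of its diet for both times. Cords were not perfused, so blood leukocytes were part of every library.

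IL-1α and IL-1β are ligands of the same receptor, and IL-1Ra, the product of *Il1rn*, occupies that receptor without signalling. IL-1β and IL-18 are made as inactive precursors and are cut by caspase-1 once an inflammasome, such as the one built on the NLRP3 sensor, has assembled. Transcript levels therefore do not show how much active cytokine was released. After spinal cord injury, microglia, infiltrating monocyte-derived macrophages (MDMs) and neutrophils are all known sources of these mediators.

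The promoters of *Il1a*, *Il1b* and *Tnf* are printed because the windows of these 3 genes hold TATAAA. In addition, *Il1a* and *Il1b* lie on the same chromosome, 54382 bases apart, yet had their highest levels in different cells. Sequences are from RefSeq for build GRCm38.p6, all on the minus strand, written 5′ to 3′ from 250 bases before to 50 bases after the start site. Capitals mark TATAAA, searched on the gene's own strand before the start. The windows lie at chr2:129309923-129310222 for *Il1a*, chr2:129371090-129371389 for *Il1b* and chr17:35201958-35202257 for *Tnf*.
Il1a: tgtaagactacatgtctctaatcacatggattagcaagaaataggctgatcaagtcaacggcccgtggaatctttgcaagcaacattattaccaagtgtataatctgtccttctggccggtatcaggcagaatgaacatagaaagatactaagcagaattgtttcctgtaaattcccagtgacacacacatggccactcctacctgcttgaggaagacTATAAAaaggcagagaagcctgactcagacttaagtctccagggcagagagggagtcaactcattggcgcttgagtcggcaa
Il1b: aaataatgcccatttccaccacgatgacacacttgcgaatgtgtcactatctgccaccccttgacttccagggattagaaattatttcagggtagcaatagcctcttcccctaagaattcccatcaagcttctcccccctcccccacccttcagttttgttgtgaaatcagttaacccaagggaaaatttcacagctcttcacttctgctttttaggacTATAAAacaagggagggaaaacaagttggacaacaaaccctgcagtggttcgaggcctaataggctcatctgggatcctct
Tnf: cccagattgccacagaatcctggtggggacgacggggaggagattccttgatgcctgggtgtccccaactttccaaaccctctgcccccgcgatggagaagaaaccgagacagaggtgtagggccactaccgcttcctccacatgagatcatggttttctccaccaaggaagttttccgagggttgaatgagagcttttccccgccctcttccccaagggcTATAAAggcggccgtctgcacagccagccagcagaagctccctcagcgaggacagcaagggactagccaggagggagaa
The element began 32, 31 and 29 bases before the start of *Il1a*, *Il1b* and *Tnf*, and 7.59% of the 32851 windows of this length held it before the start. Windows were present for 8 of the 10 genes, 11 windows in all, and none was present for *Il10* and *Osm*. A match to the NF-κB consensus on either strand occurred in the windows of *Il6* and *Nlrp3*, against 5.805% of all windows. A match describes the letters of a window and does not show binding, and no match says only that these letters are not in this window.

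The table held 21016 cells in 14 clusters, with 1795, 7439 and 9846 cells in the sham, 7 dpi and 28 dpi vehicle libraries and 492, 504 and 940 cells in the PLX5622 libraries. UMIs (unique molecular identifiers, 1 per captured transcript) summed to between 2606149 and 35694246 per library, and the median cell held 2268.5 to 5127 UMIs. Clusters were named from markers, and 68 of the 78 markers detected were highest in their own cluster. Clusters 0, 1, 3, 4, 5, 6, 7 and 9 were microglia-like, MDM-like, monocyte-like, astrocyte-like, T cell-like, ependymal-like, B cell-like and neutrophil-like, and clusters 2, 10 and 11 were endothelial-like, erythroid-like and oligodendrocyte lineage-like. The plain names stand for these clusters. The T cell cluster was led by *Gzma*, *Ms4a4b* and *Nkg7* together with *Cd3g*, *Cd3d* and *Cd3e*, so its name does not separate T cells from other cytotoxic lymphocytes. The monocyte cluster was led by *Retnla*, *Cd209a* and MHC class II genes, cluster 8 by proliferation genes together with *Elane* and *Mpo*, and cluster 12 by fibroblast genes such as *Pi16* and *Lum*, so clusters 8, 12 and 13 are given by number or by their leading genes. In all, 44 cell barcodes occurred in more than 1 library.

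Levels are counts per 1000000 UMIs of the cluster in 1 library (CPM) with an exact Poisson 95% interval. A comparison is the log2 ratio of 2 libraries with an exact conditional binomial 95% interval. All intervals cover counting error only. With 1 pool per condition there is no replicate check and no p-value, and a difference between pools cannot be told apart from a difference between the mice in them. Counts are from transcript 3′ ends and are not scaled by length, so levels are compared between cells for 1 gene rather than between genes.

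**Figure D1:**
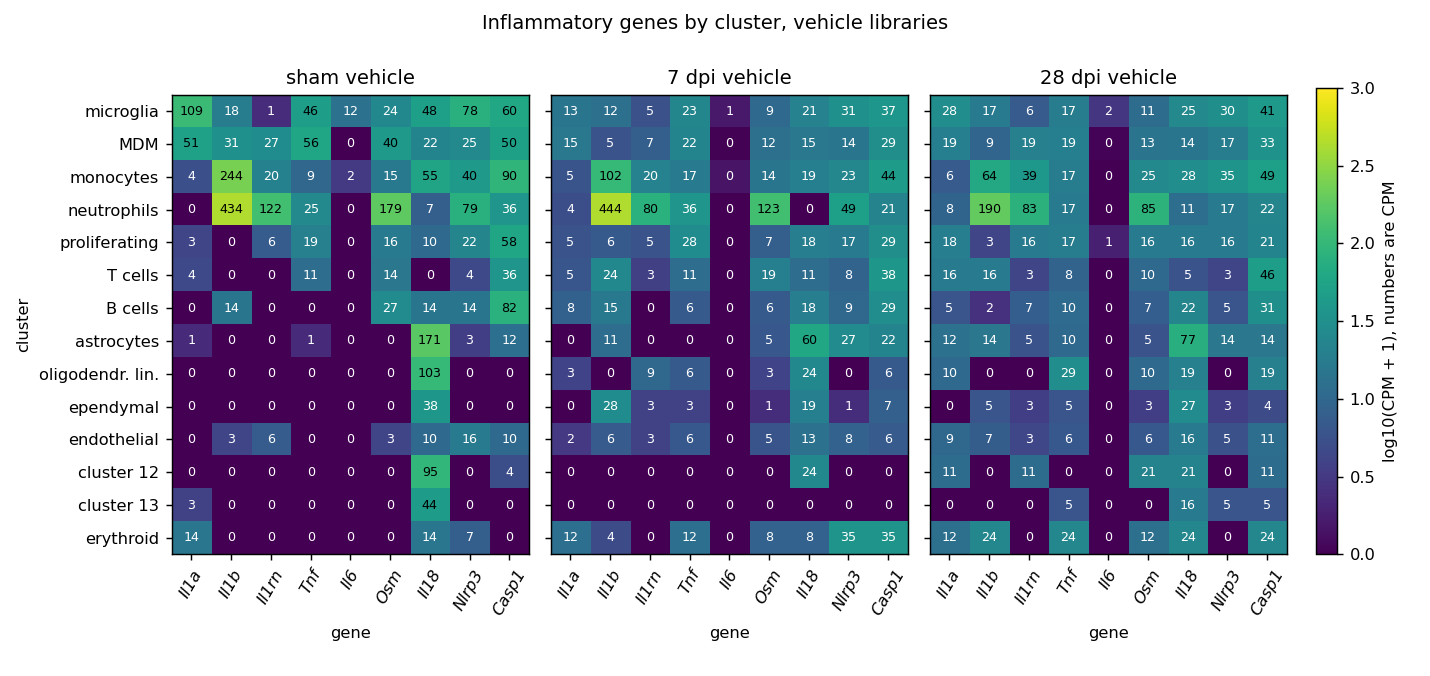
Heat map of the 9 genes in the table (columns) over 14 clusters (rows) in the 3 vehicle libraries, with colour as log10(CPM + 1) and the CPM printed in each field, where the proliferating row is cluster 8. *Il1b* was highest in neutrophils, with 434 CPM in sham, *Il1a* in sham microglia with 109 CPM, and *Il18* in sham astrocytes with 171 CPM.

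The IL-1 ligands had their highest levels in different cells. *Il1b* was highest in neutrophils in all 3 vehicle libraries and next highest in monocytes, whereas *Il1a* was concentrated in microglia and MDMs. In neutrophils *Il1b* was at 434, 444 and 190.2 CPM in the sham, 7 dpi and 28 dpi vehicle libraries and at 716, 2450 and 679 CPM in the matching PLX5622 libraries. In monocytes it was at 244, 102 and 64.3 CPM under vehicle and 62.7, 137 and 48.1 CPM under PLX5622. Neutrophils and monocytes were 2.53% and 5.08% of the cells of all 6 libraries. They numbered 64 and 75 of 1795 cells in the sham vehicle library. At 7 dpi they were 223 and 602 of 7439, and at 28 dpi 189 and 284 of 9846. Together they held 73.7% of the *Il1b* UMIs of the sham vehicle library, 64.1% at 7 dpi and 27.8% at 28 dpi. The part of cell numbers in these shares was not tested. Microglia held *Il1b* at 17.7, 11.7 and 16.9 CPM and MDMs at 31.0, 4.93 and 8.58 CPM under vehicle. At 28 dpi under vehicle, microglia held 134 and MDMs 119 of the 396 *Il1b* UMIs, against 110 in neutrophils and monocytes together. Most *Il1b* UMIs of that library thus lay in the clusters that also held *Il1a*.

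*Il1b* UMIs were unevenly spread among cells. In sham vehicle monocytes 16 of 75 cells held any, and a single cell held 30 of the 111 UMIs. After thinning each cell to 1000 UMIs, the share of neutrophils with an *Il1b* UMI was 22.4%, 17.6% and 7.75% in the vehicle libraries. The same share in ependymal cells, which are not known for *Il1b* and were used as a rough level of free RNA, was 0%, 1.27% and 0.413%. The paper describes macrophages within its ependymal cluster, with a proportion that rose after injury, so this level may include them. Before thinning, 20 of 64, 80 of 223 and 36 of 189 neutrophils had a UMI, against 0 of 76, 4 of 173 and 3 of 275 ependymal cells. Median depths were 3351.5, 1238 and 1453 UMIs in neutrophils and 4444.5, 2281 and 1866 UMIs in ependymal cells, and thinning left 58, 125 and 129 neutrophils. Neutrophils thus stood above that level at each time. By CPM, and not by share of cells, microglia and MDMs did not stand above ependymal cells at 7 dpi under vehicle. Ependymal cells then held *Il1b* at 27.7 (16.7 to 43.2), against 11.7 in microglia and 4.93 in MDMs. Those ependymal UMIs lay in only 4 of 173 cells, so this CPM is not a level shared by the cells. Whether microglia and MDMs stood above free RNA at 7 dpi cannot be told from it.

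Neutrophil *Il1b* was about as high at 7 dpi as in sham, with a log2 ratio of 0.03 (-0.30 to 0.37), and was lower at 28 dpi, with -1.19 (-1.64 to -0.75). A gene was counted as higher or lower past 2-fold if the libraries compared held 100 or more of its UMIs between them. At 7 dpi, 2 of the genes could be counted in neutrophils, *Il1b* and *Osm*, and neither was past 2-fold, against 21.5% of 792 genes higher and 4.55% lower. At 28 dpi only *Il1b* could be counted and it was lower, against 20.3% of 649 genes higher and 4.01% lower. Monocyte *Il1b* was lower than in sham at 7 dpi, with -1.26 (-1.59 to -0.92), and at 28 dpi, with -1.92 (-2.48 to -1.39). Without the cell with the most UMIs the first value was -0.90, and in cells with few early-response transcripts (defined with the injury comparison) it was 0.06, where 34 of 75 sham cells remained. In monocytes at 7 dpi *Casp1* also passed 2-fold, so 2 of 2 genes were lower and 0 higher, against 5.52% and 3.48% of 3387 genes. At 28 dpi 1 of 1 was lower, against 4.56% lower and 2.96% higher of 1556 genes.

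By level, *Il1a* showed the reverse distribution. Microglia held it at 109 (95.1 to 124), 13.5 (10.9 to 16.5) and 28.4 (24.8 to 32.3) CPM in the sham, 7 dpi and 28 dpi vehicle libraries and at 113, 28.7 and 39.6 CPM under PLX5622. MDMs held it at 51.5, 14.8 and 18.5 CPM under vehicle and 108, 14.3 and 22.5 CPM under PLX5622, the first of these from 7 UMIs in 9 cells. Those 9 cells held microglia markers at 4896 CPM and MDM markers at 2787 CPM, with *Ms4a7* and *Arg1* at 0, so they went against their cluster's name. Sham was the highest library in microglia under both diets and in MDMs under vehicle. In the vehicle libraries it was at most 8.27 CPM in neutrophils and 6.27 CPM in monocytes. In sham and at 28 dpi the microglial level stood above that of MDMs with intervals apart, and at 7 dpi the intervals of the 2 overlapped. After thinning, 11.1%, 1.21% and 2.57% of vehicle microglia held an *Il1a* UMI.

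*Il1rn*, the antagonist, was highest in neutrophils under vehicle, at 122, 80.3 and 82.7 CPM, and was at 165, 37.7 and 167 CPM under PLX5622, where the 7 dpi value is 1 UMI. Monocytes were at 19.8, 20.2 and 39.2 CPM under vehicle. There 1 cell held 18 of 44 UMIs at 7 dpi, and 1 cell held 16 of 25 at 28 dpi. Under PLX5622 monocytes were at 76.1 CPM at 7 dpi and 6.42 CPM at 28 dpi. In MDMs *Il1rn* was at 27.5, 7.19 and 19.3 CPM under vehicle and 0, 34.4 and 33.4 CPM under PLX5622. The 0 is from 9 sham cells with 64951 UMIs in all, too few to show absence. Microglia held little *Il1rn*, 1.43, 4.59 and 6.31 CPM under vehicle. In sham microglia these were 3 UMIs in 674 cells, so the log2 ratios to sham, 1.68 (0.00 to 4.04) for 7 dpi and 2.14 (0.51 to 4.47) for 28 dpi, had wide intervals.

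**Figure D2:**
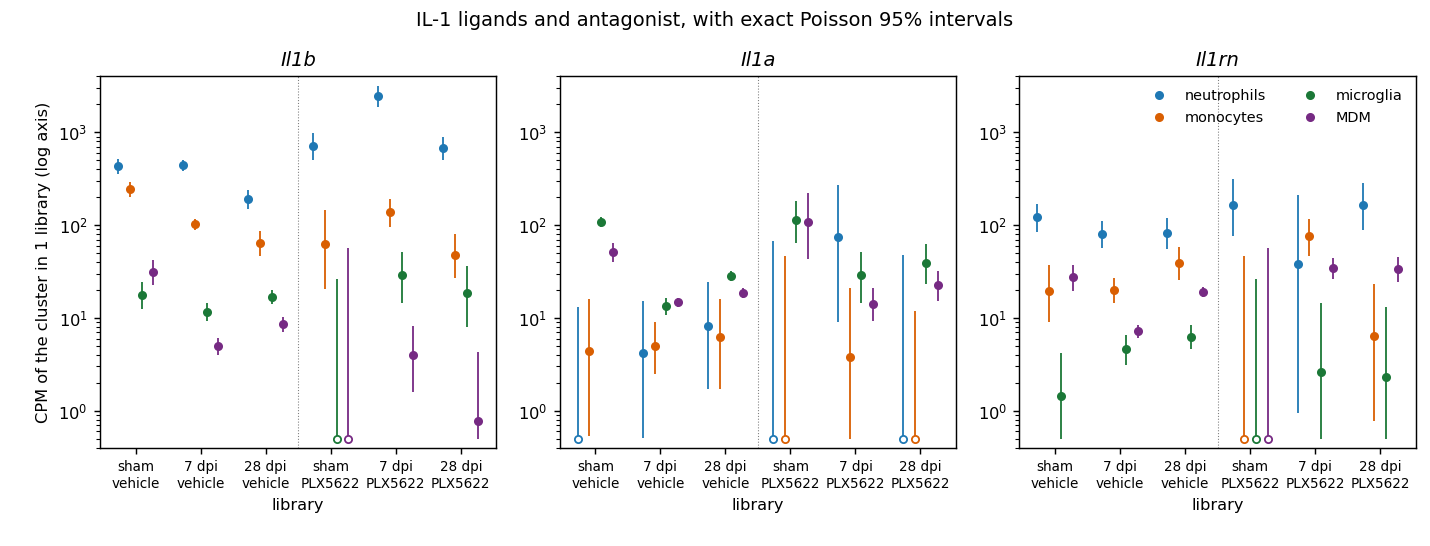
CPM (log axis) of *Il1b*, *Il1a* and *Il1rn* in neutrophils, monocytes, microglia and MDMs of each of the 6 libraries, with exact Poisson 95% intervals. Open symbols at the lower edge are counts of 0. *Il1b* lay highest in neutrophils in every library, up to 2450 CPM, while *Il1a* lay highest in microglia in both sham libraries, at 109 and 113 CPM.

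The share of *Il1rn* in the UMIs of *Il1a*, *Il1b* and *Il1rn* together gives the balance of antagonist to ligands within a cluster, and does not depend on the scaling of a library. In sham vehicle microglia it was 1.12%, with an exact Clopper-Pearson 95% interval of 0.231 to 3.24. The 7 dpi library had 15.4% (10.7 to 21.2) and the 28 dpi library 12.2% (9.21 to 15.8). In vehicle MDMs it was 25.0%, 26.7% (23.0 to 30.7) and 41.5% (37.7 to 45.4). The sham MDM value rested on 1 cell, and was 13.97% without the cell that held 20 of 39 *Il1rn* UMIs, while the 2 injured values were 25.6% and 39.6% without their top cells. In vehicle neutrophils the share was 21.9%, 15.2% and 29.4%, and in vehicle monocytes 7.38%, 15.9% and 35.7%. The monocyte values at 7 and 28 dpi were 10.0% and 16.7% without the cell with the most *Il1rn*. The antagonist share was thus lowest in sham microglia and higher in injured microglia, with intervals apart.

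**Figure D3:**
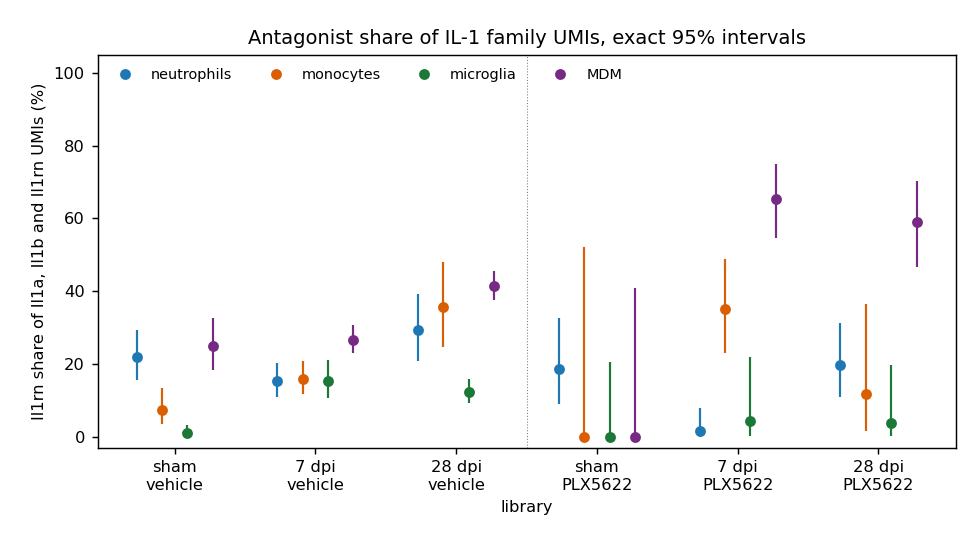
Share of *Il1rn* in the summed *Il1a*, *Il1b* and *Il1rn* UMIs (%) by library, in neutrophils, monocytes, microglia and MDMs, with exact 95% intervals. Vehicle microglia were at 1.12% in sham and 15.4% at 7 dpi, and MDMs under PLX5622 stood at 65.2% and 58.9%, the latter being 12.1% without 1 cell.

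*Tnf*, which encodes the ligand of the TNF receptors, was spread over microglia, MDMs, neutrophils and cluster 8. In microglia it was at 46.3, 22.7 and 17.0 CPM in the vehicle libraries and 28.2, 10.4 and 27.9 CPM under PLX5622, the PLX5622 values from 4, 4 and 12 UMIs. In MDMs it was at 56.4, 21.6 and 19.0 CPM under vehicle and 0, 13.7 and 17.1 CPM under PLX5622. The 0 is from 9 sham cells, too few to show absence. In each vehicle library the intervals of the 2 cell types overlapped. Neutrophils were at 25.1, 35.9 and 16.5 CPM under vehicle, from 7, 17 and 6 UMIs, and cluster 8 at 19.2, 28.0 and 17.3 CPM. At 7 dpi neutrophils ranked highest, with an interval (20.9 to 57.5) that overlapped those of cluster 8, microglia and MDMs.

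*Il6*, a cytokine of the gp130 family, was nearly absent. It had 51 UMIs in the whole table, of which 46 were in vehicle microglia, 26 in sham, 4 at 7 dpi and 16 at 28 dpi. These were 12.4 (8.10 to 18.2), 0.592 (0.161 to 1.52) and 2.02 (1.15 to 3.28) CPM, and sham stood above both injured libraries. *Il6* was at 0 in all 29, 61 and 126 PLX5622 microglia, where 3 counts would be 21.2, 7.83 and 6.98 CPM, so a level like that of injured vehicle microglia was not detectable at this depth. The 28 dpi PLX5622 library had 1 *Il6* UMI before the authors' filter, which set it to 0.

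*Osm*, which encodes oncostatin M, another gp130 cytokine, followed *Il1rn* rather than *Il6*. In neutrophils it was at 179, 123 and 85.5 CPM under vehicle and 55.1, 37.7 and 89.7 CPM under PLX5622. Those PLX5622 levels come from only 11, 12 and 32 neutrophils, and the last 2 of them rest on 1 and 7 *Osm* UMIs. For 7 dpi the log2 ratio of PLX5622 over vehicle was -1.70 (-7.03 to 0.83), which gives no direction. In MDMs *Osm* was at 40.2, 11.8 and 13.4 CPM under vehicle and 0, 20.6 and 20.2 CPM under PLX5622. The 0 is from 9 sham cells, too few to show absence. In microglia *Osm* was at 23.9, 9.48 and 10.6 CPM under vehicle. Neutrophils were above MDMs and microglia in each vehicle library, with intervals apart.

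*Il10*, which encodes an anti-inflammatory cytokine, had 3 UMIs in the libraries before filtering, 1 in the sham vehicle library and 2 in the 7 dpi vehicle library. Its receptor subunit *Il10ra* was readily found, with 4524 UMIs and its highest level, 120 CPM over all libraries, in microglia.

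*Il18* differed from the others in being highest outside the leukocytes. In astrocytes it was at 171 (143 to 202), 59.9 (29.9 to 107) and 77.3 (52.9 to 109) CPM in the vehicle libraries and 164, 114 and 85.8 CPM under PLX5622. The sham oligodendrocyte lineage and cluster 12 were at 103 and 95.1 CPM, from 8 and 22 UMIs, and vehicle microglia were at 47.7, 20.6 and 24.7 CPM. In vehicle astrocytes the log2 ratio to sham was -1.51 (-2.55 to -0.62) at 7 dpi, from 11 UMIs in 69 cells, and -1.14 (-1.75 to -0.58) at 28 dpi. Relative to the median of all genes tested in astrocytes these were -1.07 and -0.79. In the same cells the 6 astrocyte markers summed to 22310, 16250 and 15052 CPM in sham, at 7 dpi and at 28 dpi. The MDM markers, 5 of 6 detected and *Arg1* at 0, summed to 926, 13039 and 10435 CPM and the 6 microglia markers to 305, 735 and 833 CPM, and their part in the *Il18* difference was not tested. Astrocytes held 36.9% of the *Il18* UMIs of the sham vehicle library and 1.86% at 7 dpi, when they were 69 of 7439 cells.

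*Nlrp3*, the inflammasome sensor, was at 78.2, 30.7 and 30.4 CPM in vehicle microglia and at 35.3, 15.7 and 18.6 CPM under PLX5622, the latter from 5, 6 and 8 UMIs. Neutrophils held 78.9, 48.6 and 16.5 CPM, monocytes 39.5, 23.4 and 34.5 CPM and MDMs 24.7, 13.5 and 17.4 CPM under vehicle. *Casp1*, the inflammasome protease, was found across leukocytes. It was at 90.0, 43.6 and 48.6 CPM in vehicle monocytes, 60.1, 37.2 and 41.1 CPM in microglia, 50.1, 29.4 and 32.7 CPM in MDMs and 36.0, 37.8 and 46.5 CPM in T cells. In neutrophils, the cells with the most *Il1b*, *Casp1* was at 35.9, 21.1 and 22.1 CPM.

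**Figure D4:**
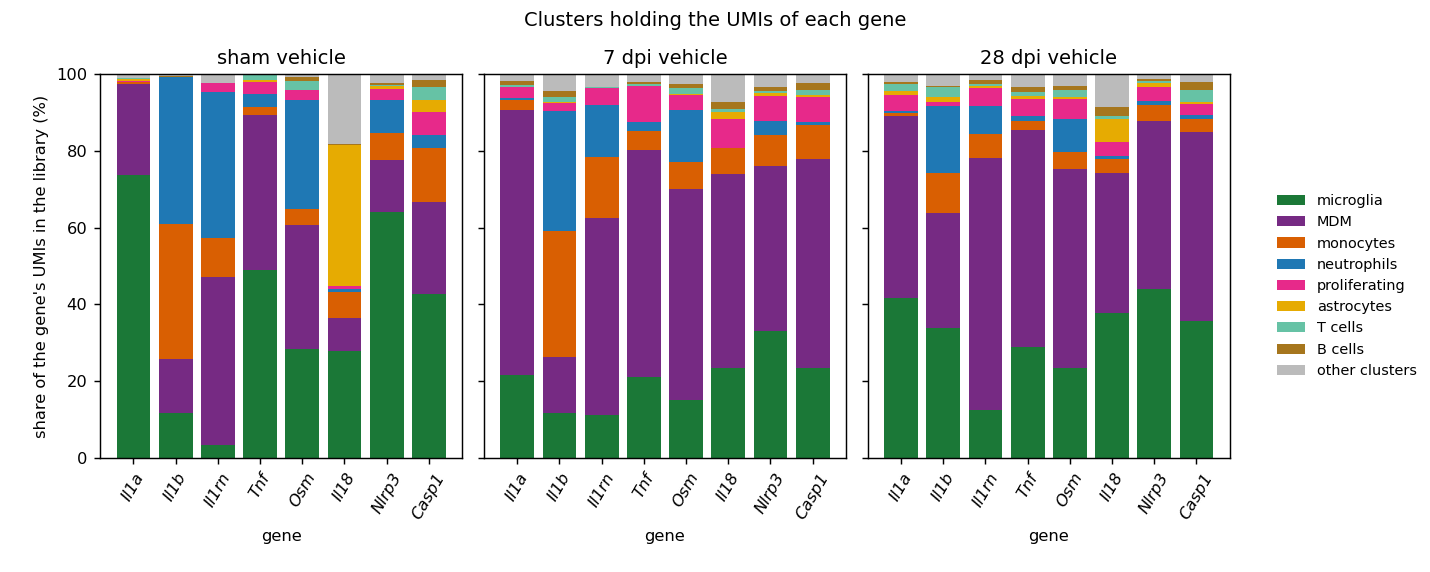
Stacked bars of the clusters that held the UMIs of 8 genes in each vehicle library (% of the gene's UMIs in that library). Microglia and MDMs together held most *Il1a*, *Tnf* and *Nlrp3* UMIs, neutrophils and monocytes most *Il1b* UMIs in sham and at 7 dpi, and astrocytes 36.9% of the *Il18* UMIs in sham, against 1.86% and 6.17% after injury.

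Injury was compared with sham in the vehicle libraries. In microglia at 7 dpi, 5 of the 7 genes that could be counted were lower than in sham, *Il1a*, *Tnf*, *Il18*, *Osm* and *Nlrp3*, and 0 were higher, against 21.5% of 6623 genes lower and 4.02% higher. The log2 ratio was -3.01 (-3.38 to -2.66) for *Il1a*, -1.35 (-1.65 to -1.05) for *Nlrp3*, -1.33 for *Osm*, -1.21 for *Il18* and -1.03 for *Tnf*. *Casp1* was at -0.69 and *Il1b* at -0.59 (-1.17 to 0.01). The median of all genes was itself -0.54, and relative to it *Il1a* was at -2.47, *Nlrp3* at -0.81, *Osm* at -0.79, *Il18* at -0.67 and *Tnf* at -0.49. With edgeR's TMM factors or DESeq2's size factors, *Il1a* alone remained past 2-fold, at -2.45 with TMM.

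At 28 dpi, 4 of 7 genes were lower in microglia, the same genes without *Il18*, and 0 higher, against 12.5% of 7162 genes lower and 3.62% higher. *Il1a* was at -1.94 (-2.21 to -1.67), *Tnf* at -1.44, *Nlrp3* at -1.36 and *Osm* at -1.17, and the median of all genes was -0.44. With TMM or DESeq2 factors 1 gene remained past 2-fold, *Il1a*, at -1.49 with TMM. From 7 to 28 dpi *Il1a* was higher by 1.07 (0.72 to 1.44), 1 of 7 genes past 2-fold and 0 lower, against 0.659% of 7740 genes higher and 0.323% lower, and with either factor 0 genes were past 2-fold. The other 6 genes were between -0.41 and 0.53.

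In MDMs at 7 dpi, 5 of 8 genes were lower than in sham, *Il1a*, *Il1b*, *Il1rn*, *Tnf* and *Osm*, and 0 higher, against 11% of 8303 genes lower and 4.09% higher. The log2 ratio was -2.65 (-3.18 to -2.11) for *Il1b*, -1.93 for *Il1rn*, -1.80 for *Il1a*, -1.77 for *Osm* and -1.38 for *Tnf*, with a median of all genes of -0.25. For *Il1rn* this rests on 1 sham cell, without which it was -0.98. At 28 dpi 4 of 8 were lower, *Il1b* at -1.85, *Osm* at -1.58, *Tnf* at -1.57 and *Il1a* at -1.47, and 0 higher, against 5.63% of 7714 genes lower and 1.53% higher. From 7 to 28 dpi *Il1rn* was higher by 1.42 (1.12 to 1.72), and by 1.39 without the top cell, which made 1 of 8 genes higher and 0 lower, against 3.29% of 9140 genes higher and 3.6% lower. Only 185 MDMs were present in the sham vehicle library, against 3023 and 3313 after injury. These sham cells held the 6 MDM markers at 10258 CPM, against 37808 and 21776 CPM at 7 and 28 dpi, and the 6 microglia markers at 2550 CPM, against 694 and 912 CPM. In the microglia cluster the microglia markers were at 9009, 2949 and 3176 CPM and the MDM markers at 59.6, 4286 and 4252 CPM in the sham, 7 dpi and 28 dpi vehicle libraries. In those microglia *Ms4a7* and *Arg1* were at 0 in sham, and *Arg1* at 28 dpi. The part of these markers in the differences of either cluster was not tested.

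**Figure D5:**
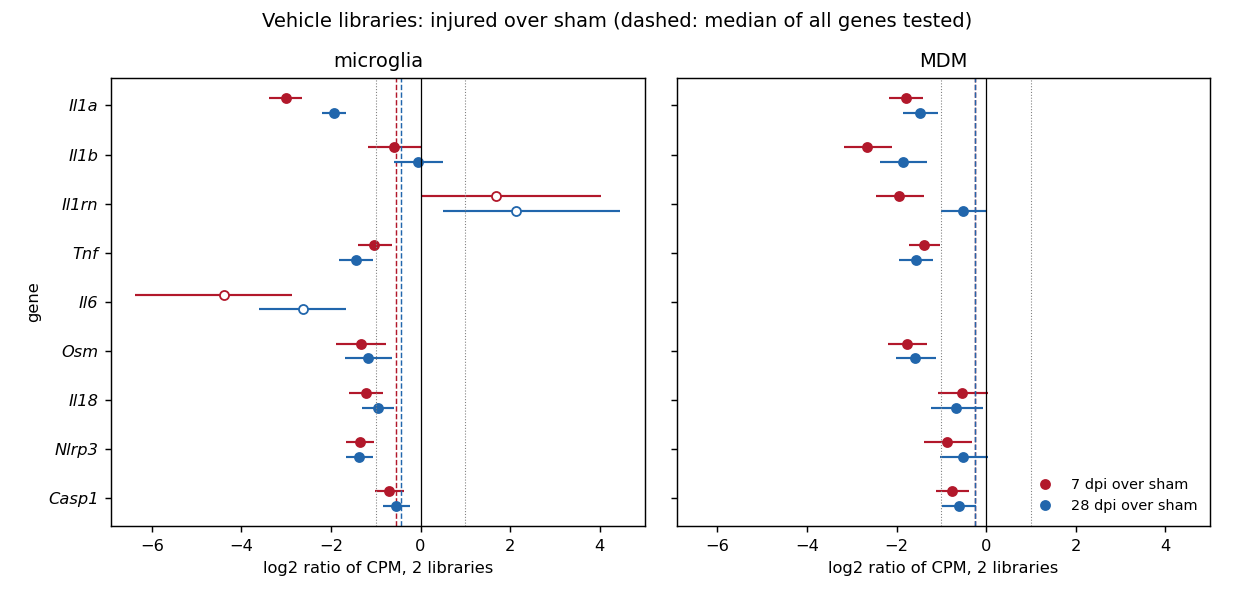
Log2 ratio of CPM at 7 dpi and at 28 dpi over sham in vehicle microglia and MDMs, with exact conditional 95% intervals. Open symbols are genes under the minimum of UMIs, dotted lines mark 2-fold and dashed lines the median of all genes tested. *Il1a* in microglia at 7 dpi (-3.01) and *Il1b* in MDMs at 7 dpi (-2.65) lay furthest below sham among the filled symbols.

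The summed level of genes known to be induced during tissue dissociation moved with these differences. A list of 13 dissociation and early response genes, such as *Fos*, *Jun* and *Dusp1*, summed to 12659, 3690 and 3697 CPM in sham, 7 dpi and 28 dpi vehicle microglia, and all 13 were detected in each. In microglia 8 of the 11 that could be counted were lower at 7 dpi and 8 of 11 at 28 dpi, but *Ccl4* was higher, at 1.59 and 1.90, and *Ccl3* was at 0.37 and 0.69. In MDMs the sums were 7121, 1848 and 2881 CPM, in monocytes 6746, 2974 and 3687 CPM and in neutrophils 5124, 3547 and 3035 CPM. In sham microglia, 103 of 674 cells had at most 0.5% of their UMIs in the list, against 1588 of 2154 and 2879 of 3974 in the injured libraries. Within such cells the microglial *Il1a* ratio was -2.41 at 7 dpi and -1.44 at 28 dpi. *Il1b*, at -0.59 and -0.06 in all microglia, was at -2.81 and -2.97. *Nlrp3* was at -0.96 and -1.02, *Osm* at -1.19 and -1.10, and *Tnf* at -0.34 and -0.98. In MDMs of the same kind *Il1b* was at -1.71 and -1.35, *Il1a* at -1.03 and -0.97, *Tnf* at -0.21 and -0.50, and *Il1rn* stood above sham at 0.38 and 1.14, against -1.93 and -0.51 in all MDMs. These subset ratios are given without intervals and rest on few sham UMIs. All sham vehicle microglia held 37 *Il1b* UMIs, and all sham vehicle MDMs held 39 *Il1rn* UMIs, 20 of them in 1 cell. The part of single cells in the subset ratios was not tested. Nor was the part of dissociation in the full values tested. The 6 neutrophil markers, all detected, summed to 394, 380 and 393 CPM in the sham, 7 dpi and 28 dpi vehicle microglia. The part of neutrophil RNA in the microglial differences was not tested.

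PLX5622 was compared with vehicle at each time, with few cells in each cluster of the PLX5622 libraries. The label was checked first, as microglia numbered 29 of 492, 61 of 504 and 126 of 940 cells under PLX5622 and 674 of 1795, 2154 of 7439 and 3974 of 9846 under vehicle. In the remaining microglia at 7 dpi, 1 of 5 genes was higher, *Il1a* at 1.09 (0.04 to 2.00), and 1 lower, *Tnf* at -1.12 (-3.01 to 0.27), against 1.89% of 5616 genes higher and 4.88% lower. These rest on 11 and 4 UMIs. *Il1b*, under the minimum with 11 and 79 UMIs, was at 1.29 (0.23 to 2.21). At 28 dpi 0 of 6 genes were past 2-fold in either direction, against 1.64% of 6359 genes higher and 5.87% lower, and *Il1a* was at 0.48 (-0.33 to 1.19).

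In MDMs, *Il1rn* was higher under PLX5622 at 7 dpi. It was at 34.4 (26.2 to 44.2) CPM with 22 of 100 cells holding a UMI, against 7.19 (6.06 to 8.48) CPM with 114 of 3023 cells, a log2 ratio of 2.26 (1.80 to 2.70). Without the top cell it was 2.02, and in cells with few early-response transcripts 2.39. The 6 MDM markers summed to 67701 CPM in these MDMs and 37808 CPM under vehicle, and their part in the *Il1rn* difference was not tested. It was the 1 gene of 8 higher and 0 were lower, against 1.83% of 8295 genes higher and 2.17% lower. The other 7 genes were between -0.65 (*Tnf*) and 0.80 (*Osm*). The antagonist share of the 3 IL-1 genes was 65.2% (54.6 to 74.9) under PLX5622 and 26.7% under vehicle, and was 60.8% without the top cell. At 28 dpi a single cell held 39 of the 43 *Il1rn* UMIs under PLX5622. The ratio of 0.79 (0.29 to 1.26) became -2.52 without it, and the antagonist share of 58.9% became 12.1%, so no direction can be given at 28 dpi. At that time 2 of 8 genes were lower and 0 higher, *Il1b* at -3.47 (-8.78 to -0.96), from 1 UMI, and *Nlrp3* at -1.16 (-2.24 to -0.26), from 10 UMIs, against 2.48% of 7635 genes lower and 2.33% higher.

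In neutrophils *Il1b* was higher under PLX5622, by 2.46 (2.04 to 2.87) at 7 dpi and by 1.84 (1.29 to 2.37) at 28 dpi. These clusters held 12 and 32 cells, of which 9 and 12 had a UMI. The 12 cells at 7 dpi stood apart, with the 6 neutrophil markers at 129409 CPM against 274449 to 410699 CPM in the other 5 libraries, and with the early response list at 10702 CPM against 2661 to 5124 CPM. The part of either in the *Il1b* level was not tested. In the sham libraries *Il1b* was at 716 (509 to 978) CPM under PLX5622, from 11 cells, and 434 (360 to 518) CPM under vehicle, and the intervals overlapped. In monocytes the 7 dpi ratio of *Il1b* was 0.43 (-0.12 to 0.94) and the 28 dpi ratio -0.42 (-1.38 to 0.47). Monocyte *Il1rn* had a 7 dpi ratio of 1.91 (1.07 to 2.71), with 18 of 20 PLX5622 UMIs in 1 cell.

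The receptors and partners of these genes were located over all libraries. *Il1r1*, the signalling IL-1 receptor, was highest in endothelial cells at 75.5 CPM, while *Il1r2*, a decoy receptor, was highest in neutrophils at 163 CPM. *Il1rap*, the shared co-receptor, was highest in the oligodendrocyte lineage at 197 CPM. The oncostatin M receptor *Osmr* was highest in endothelial cells at 104 CPM and *Il6ra* in microglia at 117 CPM. For IL-18, *Il18r1* was highest in T cells at 121 CPM, *Il18rap* in neutrophils at 115 CPM and the soluble inhibitor *Il18bp* in MDMs at 56.1 CPM. *Pycard*, the adaptor between sensor and caspase-1, was at 428 CPM in microglia, and *Gsdmd*, the pore-forming target of caspase-1, was at 49.9 CPM in monocytes and 49.8 CPM in microglia.

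Of 14 receptor genes, 7 could be counted in microglia at 7 dpi and 6 were lower than in sham, led by *Il6ra* at -1.99, *Il10ra* at -1.73 and *Lifr* at -1.71, while 0 were higher, against the 21.5% of all genes lower given above. Of 9 inflammasome partners 7 could be counted and 1 was lower, *Txnip*, which binds thioredoxin and NLRP3, at -2.62. Of 11 adaptor and NF-κB genes 9 could be counted and 2 were lower, the feedback inhibitors *Socs3* at -2.42 and *Nfkbia* at -1.01, and the counts of both these lists are near the share of all genes. At 28 dpi the counts of lower genes were 4 of 7, 1 of 7 and 3 of 9, and 0 were higher, against 12.5% of all genes lower. In MDMs at 7 dpi 4 of 9 receptor genes were lower and 1 higher, *Il18bp* at 2.11 (1.56 to 2.73), from 18.3 CPM in sham to 79.4 CPM. *Il18bp* was at 25.2 CPM at 28 dpi, and under PLX5622 it was at 52.1 CPM at 7 dpi and 78.5 CPM at 28 dpi. In the same MDMs 2 of 7 inflammasome partners were lower and 0 higher, and 6 of 11 adaptor and NF-κB genes were lower, led by *Socs3* at -3.56 and *Nfkbiz* at -2.15, against 11% of all genes lower and 4.09% higher. The 1 gene higher was *Traf6*, at 1.41 (-0.17 to 3.71), from 3 sham UMIs.

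Genes with the most similar pattern were sought among all genes with at least 500 UMIs, over the 48 combinations of cluster and library with at least 50 cells, by Pearson's r of log2(CPM + 10). These points share libraries and depth, so r is a description. *Il1b* was closest to *Ccr1* (r = 0.91), *Il1a* to *Liph* (0.87) and *Adora3* (0.87), *Nlrp3* to *C5ar1* (0.87) and *Casp1* to *Apbb1ip* (0.86). *Tnf* was closest to *Ptpre* (0.81) and *Il18* to *Chd9* (0.85). *Il1rn* and *Osm* were each other's closest genes, at 0.86. The r of *Il18* with the nearest of the other inflammatory genes, *Il1a*, was -0.01.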

How the data were processed

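Spinal cord was dissociated with a gentleMACS kit, myelin and dead cells were removed, and libraries were made with 10x Chromium 3′ V3 chemistry. The authors counted UMIs with Cell Ranger on GRCm38 (mm10) and filtered and clustered cells with Seurat, and the deposited values are raw counts per gene and cell with a cluster number per cell. The 254 barcodes that the table leaves out had fewer than 200 genes. In the table, a gene in fewer than 3 cells of a library is set to 0, which removed 1 *Il6* UMI at 28 dpi under PLX5622. Doublets were left in, as in the authors' clusters. Bulk RNA-seq was not analysed here.

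UMIs were summed per cluster and library to CPM. A gene at 0 on one side was set to a floor of 3 counts. No test was made, with 1 library per condition. The genes and lists were chosen with earlier results of these data known. The text names the inflammatory genes, up to 3 genes of a list with the largest ratios, the receptors and partners by highest cluster, and the 3 most similar genes. Alternatives were other scaling factors, equal weight per cell, cells thinned to 1000 UMIs, at least 500 genes, without the 5% of cells with the most UMIs, without cells with 3 or more neutrophil marker UMIs, and a minimum of 20 UMIs. The log2 ratio and its interval were tested on simulated Poisson counts, which had no variation between cells or pools. Scaling factors came from edgeR 4.0.16 and DESeq2 1.42.0 in R 4.3.3, and all else from Python 3.11.15 with pandas 2.3.3, scipy 1.17.1, numpy 2.4.6 and matplotlib 3.10.9.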

Additional observations from a re-analysis of the deposited data

Results flagged for a closer look

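At 28 dpi *Il1b* stood in opposite directions under PLX5622 in MDMs and in neutrophils. Its log2 ratio to vehicle was -3.47 in MDMs, from 1 UMI against 119, and 1.84 in neutrophils, from 53 UMIs against 69. Each condition is 1 library, so the difference between the cell types was not tested. In MDMs at 7 dpi the ratio was -0.30 (-1.65 to 0.80).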

How the results depend on the processing

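No paired analysis was possible because each condition is 1 library and no test was made, and for the same reason no replicate could be left out. Of 748 log2 ratios under 10 alternatives, 661 moved by less than their interval, 85 moved further and 2 that were past 2-fold changed sign. These were *Il1rn* in MDMs (0.38) and *Il1b* in monocytes (0.057) at 7 dpi over sham, both in cells with at most 0.5% early-response UMIs. That alternative, and the one without the cell with the most UMIs of a gene, were chosen after seeing the data. Of 129 counts of genes past 2-fold, 35 moved by over 1.5 times. In microglia the count at 7 dpi over sham, 5 of 7, became 1 with TMM or DESeq2 factors, 2 of 2 after thinning, 3 of 6 without cells with neutrophil marker UMIs and 2 of 3 with few early-response UMIs. The count at 28 dpi, 4 of 7, became 1 with either factor, 2 of 3 after thinning and 2 of 4 with few early-response UMIs. For 28 over 7 dpi, 1 became 0 with either factor or few early-response UMIs and 2 with the minimum of 20 UMIs. In MDMs 5 of 8 at 7 dpi became 1 of 7 with few early-response UMIs, 4 of 8 at 28 dpi became 1 of 7 likewise and 0 of 1 after thinning, and for 28 over 7 dpi 1 became 0 likewise and 2 without the cells with the most UMIs. In monocytes at 7 dpi, 2 became 1 with either factor, without the cells with the most UMIs or without neutrophil marker UMIs, and 0 with few early-response UMIs or without the top cell of the gene. In neutrophils 0 at 7 dpi became 1 after thinning and 1 at 28 dpi became 3 with the minimum of 20. Under PLX5622 microglia went from 2 to 1 at 7 dpi with each cell weighted alike, without the cells with the most UMIs or without neutrophil marker UMIs, and from 0 to 2 with the minimum of 20 and 1 with few early-response UMIs at 28 dpi. MDMs went from 1 to 2 at 7 dpi with each cell alike or without the cells with the most UMIs, and from 2 to 1 at 28 dpi after thinning or without those cells. The cause of these moves was not tested, except that thinning and the low early-response alternative count fewer genes. In 9 cases no gene had enough UMIs. Depth limits *Il6*, *Il10* and all PLX5622 clusters.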
